A study of Mus musculus with 123 samples.

Results

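Gabra2, Gabra3, Gabra5, Gabrb1, Gabrb2, Gabrg1 and Gabrg3 are genes for alpha, beta and gamma subunits of the GABA-A receptor, the chloride channel opened by the transmitter GABA. They were taken by symbol and are 7 of the 24134 genes in the tables. GABA-A receptors are rings of subunits in which alpha and beta subunits form the GABA binding sites, and the alpha and gamma subunits form the benzodiazepine site. Sensory neurons of the dorsal root ganglion (DRG) hold a high internal chloride, so that GABA depolarizes them, and receptors on their central terminals take part in presynaptic inhibition in the spinal cord.

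The study cut the sciatic nerve on the right side of adult mice (sciatic nerve transection, SNT), picked single DRG neurons of lumbar ganglia by hand from both sides, and made Smart-seq2 libraries of each cell. The uncut side served as control. Pooled neurons of each side were lysed together at day 3 and divided into 3 libraries, to stand beside the cells. The comparison asks which genes differ between axotomized and intact neurons at days 3 and 7.

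Day-3 cells and the pooled libraries came from F1 offspring of CAST/Eij males and C57BL/6 females and were read with 50 bp, and day-7 cells came from C57BL/6 mice of both sexes and were read with 75 bp. The paper describes the F1 mice as female, while the day-3 labels give no sex. All mice were 2 months old. Of 117 cells, the 106 in the authors' table without outliers were used: 18 control and 41 SNT cells at day 3, and 14 control (7 female, 7 male) and 33 SNT cells (16 female, 17 male) at day 7. The labels give no animal, so the cells of each side and day were treated as 1 sample and given with no test, and the control neurons lie in the same animals' uncut side. The 3 pooled libraries of a side are parts of 1 lysate, so their p-values measure technical spread only. Strain, sex and read length change together with the day, and the days cannot be told apart from them.

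Library totals set the precision of every value. Pooled control libraries 1, 2 and 3 held 727212, 839135 and 563462 counts, and pooled SNT libraries 1, 2 and 3 held 1672826, 1148849 and 2003817. Cell totals (lowest, median, highest) were 277390, 862619 and 1368842 for control at day 3, and 611647, 1323932 and 1849130 for SNT at day 3. At day 7 they were 510014, 738947 and 1018545 for control, and 261351, 575179 and 965292 for SNT. Values are given as counts scaled to a library total of 1000000 (CPM).

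The side of the pooled libraries was taken from their column names. The sample identifiers pair the sides the other way, and the source label describes all 6 libraries as intact; with the other pairing every pooled difference would change sign. Atf3, a transcription factor gene induced by axotomy, was at 8.25, 21.4 and 10.6 CPM in the libraries named control and at 1619, 1372 and 1409 CPM in those named SNT. With the quasi-likelihood test of edgeR, p adjusted by Benjamini-Hochberg, Atf3 had a log2 change of 6.86 (SE 0.21, higher in 3 of 3 SNT libraries, adjusted p = 1.14e-26). 

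In pooled neurons at day 3, the alpha subunit gene Gabra5 and the gamma subunit gene Gabrg1 were higher after SNT, by 3.2-fold and 2.09-fold. The beta subunit gene Gabrb2 was lower, by 3.91-fold. Gabra2, the most abundant alpha subunit gene of the members, lay at a similar level on both sides, and Gabrb1 did not pass the test. Gabra3 and Gabrg3 held too few counts to be tested. A gene was called when it passed an adjusted p of 0.05 and a log2 change of more than 1, up or down, among genes averaging 1 CPM or more. Of the 7 members 5 passed this filter and 3 were called (2 higher, 1 lower), beside 2157 of 13509 genes tested, or 16% (1196 higher, 8.85%, and 961 lower, 7.1%). The median log2 change was 0.95 over the 5 members tested and 0.02 over all genes tested.

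Among the alpha subunits, which set much of a receptor's drug sensitivity and placement, Gabra2 was at 111, 96.5 and 119 CPM in control libraries and at 135, 100.1 and 101 CPM in SNT libraries. The sides overlapped, and the log2 change of 0.21 (SE 0.19) had a Benjamini-Hochberg adjusted p of 0.478 in edgeR's quasi-likelihood test, with 1 of 3 SNT libraries above every control library. Gabra5, whose product is known from extrasynaptic receptors with tonic currents, was at 5.50, 8.89 and 5.32 CPM in control libraries and at 17.9, 25.02 and 14.8 CPM in SNT libraries. Every SNT library was above every control library. The log2 change of Gabra5 was 1.69 (SE 0.49, adjusted p = 0.00813 by the same edgeR test, higher in 3 of 3 SNT libraries), and without SNT library 2 it was 1.49 with an adjusted p of 0.0529. In these pooled samples, a change in the number of cells of a type and a change in RNA per cell cannot be told apart. Gabra3 had 0, 3 and 0 counts in control libraries and 1 count in each SNT library, and was not tested.

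Of the beta subunits, which every typical receptor needs to form its GABA sites, Gabrb2 was at 27.5, 17.9 and 26.6 CPM in control libraries and at 2.99, 9.57 and 4.49 CPM in SNT libraries. The lowest control library stood above the highest SNT library. The log2 change of Gabrb2 was -1.97 (SE 0.50, adjusted p = 0.00237 by edgeR's quasi-likelihood test, lower in 3 of 3 SNT libraries). Gabrb1 was at 5.50, 4.77 and 1.77 CPM in control libraries and at 10.2, 6.96 and 4.99 CPM in SNT libraries. The sides of Gabrb1 overlapped, with 2 of 3 SNT libraries above every control library, and edgeR gave an adjusted p of 0.359 for a log2 change of 0.95 (SE 0.70).

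Of the gamma subunits, which take part in benzodiazepine binding and synaptic clustering, Gabrg1 was at 86.6, 66.7 and 83.4 CPM in control libraries and at 177, 142 and 124 CPM in SNT libraries. Each SNT library was above each control library. The log2 change of Gabrg1 was 1.07 (SE 0.20, adjusted p = 4.61e-05 by edgeR's quasi-likelihood test, higher in 3 of 3 SNT libraries), close to the fold limit. It fell short of that limit without SNT library 1 (0.93) and without control library 2 (0.94), with library size alone as the scaling (0.91) and with libraries thinned to the smallest total (0.98). Gabrg3 had 1 count in control library 1 and 0 counts in the other 5 libraries.

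**Figure D1:**
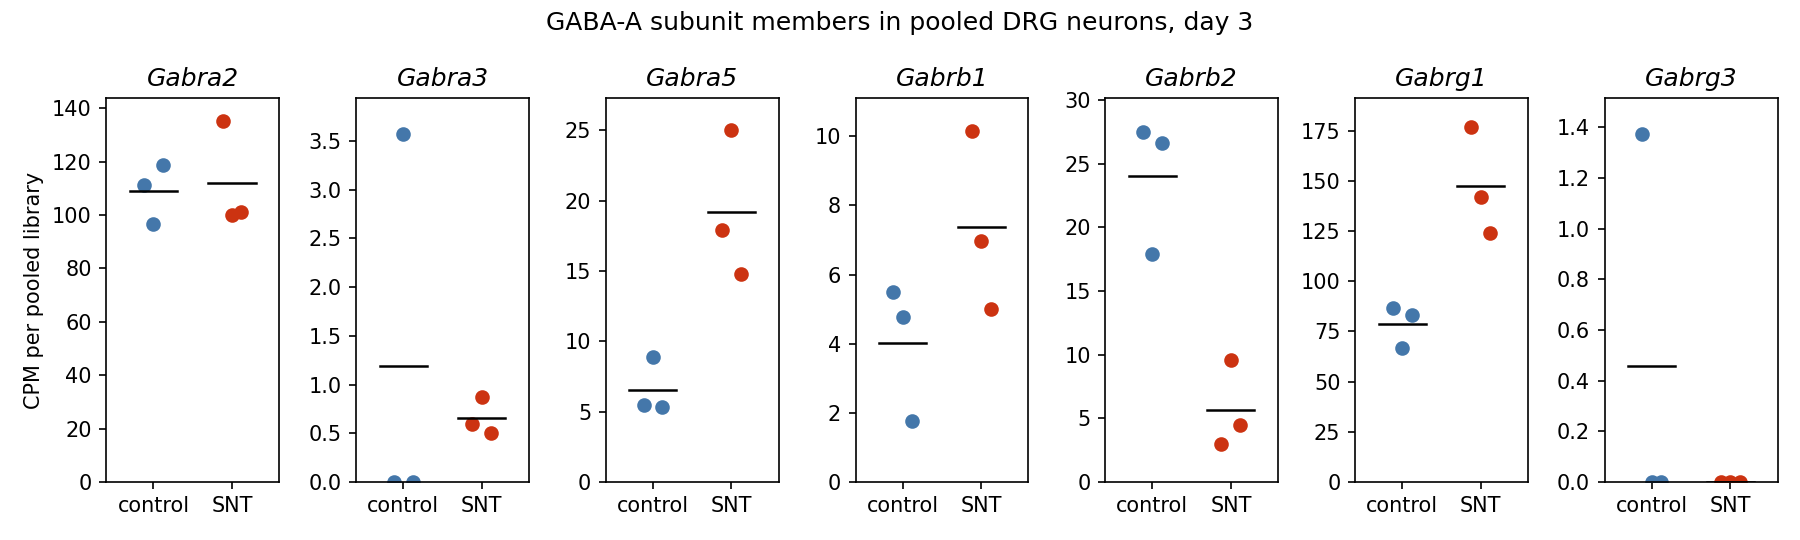
CPM of each GABA-A subunit member in the pooled libraries of day 3, with points for the 3 control (blue) and 3 SNT (red) libraries, black lines for their means, and a linear axis from 0 with a scale of its own in each panel. Gabra5 and Gabrg1 lie higher in every SNT library and Gabrb2 lies lower, while the sides overlap for Gabra2 and Gabrb1, and Gabra3 and Gabrg3 are near 0.

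Levels were compared between genes per kilobase of exon. In pooled control neurons the order of mean levels was Gabra2 (14.3 CPM per kb), Gabrg1 (10.0), Gabrb2 (3.77), Gabra5 (2.21), Gabra3 (0.304), Gabrb1 (0.290) and Gabrg3 (0.0384). In pooled SNT neurons it was Gabrg1 (18.7 CPM per kb), Gabra2 (14.7), Gabra5 (6.46), Gabrb2 (0.894), Gabrb1 (0.533), Gabra3 (0.167) and Gabrg3 (0). Gabra2 and Gabrg1 thus changed places. Gabra5, Gabra3 and Gabrb1 rested on few counts in control libraries, 4, 7.46 and 3 for Gabra5, so their places there are uncertain.

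Markers of other cells and of neuron types moved with the sides in the same libraries. Of 10 satellite and Schwann glia markers, 5 were lower and 2 higher in SNT, with summed levels of 12753, 15495 and 14995 CPM in control and 5965, 6763 and 6477 CPM in SNT libraries, Apoe as the highest per length and none at 0 throughout. Of 5 markers of non-peptidergic (NP) nociceptors 4 were lower, with P2rx3 the highest per length and sums of 3080, 3058 and 3166 CPM in control and 1102, 1050 and 1149 CPM in SNT libraries. Of 4 markers of peptidergic (PEP) nociceptors 2 were lower, with Calca the highest per length and sums of 2289, 1895 and 2237 against 999.6, 974.9 and 1128 CPM. Of 5 markers of large myelinated (LM) neurons 2 were higher, with Nefh the highest per length and sums of 672, 648 and 703 against 973, 898 and 920 CPM. That LM sum followed Nefh, at 305, 303 and 334 against 686, 597 and 633 CPM, while Ntrk2 of the same list was at 285, 229 and 254 against 129, 142 and 131 CPM.

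All 4 markers of C-fiber low-threshold mechanoreceptors were lower, led per length by Th, with sums of 433, 604 and 528 against 83.1, 141 and 98.8 CPM. Of 4 general neuron markers 1 was higher, with Tubb3 the highest per length and sums of 6351, 7266 and 6486 against 12061, 12444 and 13814 CPM. Immune markers summed to 0, 2.38 and 1.77 CPM in control and 2.39, 4.35 and 5.49 CPM in SNT libraries, with S100a8 the highest per length and Ptprc and C1qc at 0 in all 6 libraries, and of the 8 only 1 held enough counts to be tested and was not called. Erythrocyte markers summed to 0, 10.7 and 3.55 against 10.8, 6.96 and 12.5 CPM, with Hba-a1 the highest per length and Hba-a2 and Hbb-bs at 0 in all 6 libraries, and of the 5 only 1 could be tested and was not called. All 4 axotomy markers were higher, led per length by Gal, with sums of 92.1, 119 and 126 against 7135, 7410 and 7691 CPM. The part of these lists in the differences of Gabra5, Gabrb2 and Gabrg1 was not tested.

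In single neurons at day 3, Gabrg1 was higher on the SNT side by 8.61-fold and Gabra3 was lower by 2.82-fold, as ratios of mean CPM + 1. Gabra2 was present in nearly every neuron of both sides, and the other members exceeded 10 CPM in a minority of cells. These 2 members were past the fold, defined as a log2 ratio beyond 1, among 6 members averaging 1 CPM or more, 1 in each direction. Over all 13644 genes at that level 1791, or 13.1%, were past it (6.78% higher, 6.35% lower). The median log2 ratio was -0.16 over the 6 members and -0.05 over all genes.

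Gabrg1 in control cells at day 3 ranged from 0 through a median of 0.378 to 221 CPM, and in SNT cells from 0 through a median of 5.45 to 1287 CPM. The cells of the sides overlapped widely, and the difference in means lay in a small number of SNT cells far above the rest. Means were 17.5 ± 52.9 CPM (SD over 18 cells) and 158 ± 354 CPM (SD over 41 cells), a log2 ratio of 3.106. Without the highest cell of each side, 221 and 1287 CPM, the log2 ratio was 4.33. Gabrg1 exceeded 10 CPM in 3 of 18 control cells (16.7%, exact Clopper-Pearson 95% interval 3.58% to 41.4%) and in 14 of 41 SNT cells (34.1%, 20.1% to 50.6%). Intervals cover counting error only, since reads carry no molecular identifiers and the cells have no named animals.

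The cells with much Gabrg1 shared markers. Above 100 CPM of Gabrg1 stood 1 of 18 control and 9 of 41 SNT cells at day 3, all of them with Nefh above 100 CPM, the heavy neurofilament gene of myelinated neurons, and 0 with P2rx3, an ATP-gated channel gene of NP neurons, above 100 CPM. Over all cells of day 3, Nefh exceeded 100 CPM in 8 of 18 control and 24 of 41 SNT cells and P2rx3 in 12 and 22, and Calca in 14 and 27. Of the 9 SNT cells with much Gabrg1, 2 had Calca above 100 CPM. Over the 59 cells of day 3 the Spearman correlation of Gabrg1 was -0.61 with P2rx3 and 0.60 with Nefh, a description over cells whose animals are not named and whose depth differs. Cells with both P2rx3 and Calca at most 100 CPM numbered 1 of 18 on the control side and 11 of 41 on the SNT side. That control cell had 221 CPM of Gabrg1, the highest of its side, and the 11 SNT cells had a mean of 465 ± 481 CPM. Among the other cells Gabrg1 was at 5.50 ± 15.4 CPM in 17 control cells and at 45.3 ± 209.7 CPM in 30 SNT cells. The medians of these other cells were 0 and 1.67 CPM, with 2 and 4 cells above 10 CPM. Their highest cells were at 63.9 and 1151 CPM, so the SNT mean rested largely on 1 cell. The number of cells low in P2rx3 and Calca can follow from the injury as well as from the cells picked, which cannot be told apart here. P2rx3 itself was lower in pooled SNT neurons (log2 change -1.23, SE 0.13, adjusted p = 5.36e-10 by edgeR's quasi-likelihood test, lower in 3 of 3 SNT libraries), and Calca had a log2 change of -0.85 there. In day-3 cells the mean of P2rx3 was not lower throughout. It was 803 CPM in control, 987.5 CPM in 30 SNT cells with Atf3 above every control cell, and 628 CPM in the other 11. The medians were 699, 103 and 249 CPM. Marker sums by side at day 3 had medians of 2856 CPM in control and 341.5 CPM in SNT cells for the PEP list, 1990 and 1488 CPM for the NP list, 176 and 214 CPM for the LM list, and 3788 and 3899 CPM for the glia list. By single genes, 3 of 5 NP, 4 of 4 PEP and 4 of 4 C-fiber low-threshold mechanoreceptor markers were past the fold lower. Their median log2 ratios were -1.43, -1.59 and -2.11. Past it higher were 2 of 5 LM (median 0.08) and 1 of 10 glia markers (median 0.07). Of 4 immune markers 2 were higher and 1 lower, and of 2 erythrocyte markers 2 were lower. The part of neuron types in the Gabrg1 difference was not tested.

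Gabra2 at day 3 ranged from 19.7 through a median of 69.6 to 167 CPM in control cells and from 9.23 through 65.4 to 312 CPM in SNT cells. It exceeded 10 CPM in 18 of 18 and 40 of 41 cells, and the log2 ratio of means was 0.30. Gabra3 was above 10 CPM in 3 control and 4 SNT cells, with medians of 0 on both sides and highest cells of 68.0 and 18.5 CPM, so its log2 ratio of -1.49 rested on few cells. Gabra5 was above 10 CPM in 6 of 18 control and 13 of 41 SNT cells, with means of 24.6 ± 40.3 and 15.6 ± 25.4 CPM and a log2 ratio of -0.63. The sign of this Gabra5 ratio turned with the summary, to 0.21 with counts summed over cells and 0.24 with medians, all within the fold, while the pooled libraries had Gabra5 higher after SNT. The beta subunit gene Gabrb2 was above 10 CPM in 5 control and 5 SNT cells, with a log2 ratio of -0.61. This Gabrb2 ratio was -0.20 with counts summed over cells, 0.00 with medians and -1.10 with cells thinned to 200000 counts. Gabrb1 was above 10 CPM in 2 control and 8 SNT cells, with a log2 ratio of 0.83. Gabrg3 exceeded 10 CPM in 0 of 18 control cells, which allows a share of up to 18.5%, and in 0 of 41 SNT cells, which allows up to 8.60%.

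In single neurons at day 7, Gabrg1 was also higher on the SNT side, by 5.39-fold, and Gabra3 was higher by 2.09-fold. Gabra2 was above 10 CPM in every cell of both sides. Gabra5 and Gabrb2 had like means on both sides. Of the 6 members averaging 1 CPM or more, 2 were past the fold and both were higher, beside 1276 of 13264 genes, or 9.62% (5.99% higher, 3.63% lower). The median log2 ratio was 0.19 over the 6 members and -0.04 over all genes.

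Gabrg1 at day 7 ranged from 0 through a median of 7.5 to 183 CPM in 14 control cells, and from 0 through a median of 74.4 to 1281 CPM in 33 SNT cells. The ranges overlapped, with many SNT cells above the highest control cell. Means were 39.3 ± 58.7 and 216 ± 295 CPM (SD over cells), a log2 ratio of 2.43, and the shares above 10 CPM were 6 of 14 (42.9%, 17.7% to 71.1%) and 24 of 33 (72.7%, 54.5% to 86.7%). Within female cells the means of Gabrg1 were 61.5 and 373 CPM (log2 ratio 2.58). Within male cells they were 17.1 and 68.5 CPM (log2 ratio 1.94). Above 100 CPM of Gabrg1 stood 3 of 14 control and 16 of 33 SNT cells, 0 of them with P2rx3 above 100 CPM. Over all cells of day 7, P2rx3 exceeded 100 CPM in 4 of 14 control and 6 of 33 SNT cells, and Nefh in all cells of both sides. Among cells with both P2rx3 and Calca at most 100 CPM, Gabrg1 was at 88.1 ± 62.7 CPM in 6 control cells and at 320 ± 314 CPM in 22 SNT cells, and among the others at 2.66 ± 3.5 CPM in 8 control and 8.02 ± 9.70 CPM in 11 SNT cells. Over the 47 cells of day 7 the Spearman correlation of Gabrg1 was -0.79 with P2rx3 and 0.47 with Ret, both of the NP list, and -0.03 with Nefh. With the other LM markers it was 0.58 (Spp1), 0.54 (Pvalb), 0.29 (Ntrk3) and 0.21 (Ntrk2). Marker sums differed between the sides at day 7, with medians of 4724 CPM in control and 750.0 CPM in SNT cells for the glia list, 491 and 5.60 CPM for the PEP list, 412 and 497 CPM for the NP list, and 3094 and 3072 CPM for the LM list. These sums follow the most abundant genes of a list. By single genes, 3 of 5 LM markers were past the fold higher (median log2 ratio 1.18). Of 4 NP markers averaging 1 CPM or more, 2 were past it lower (median -1.26). Of 10 glia markers 0 were past it (median -0.28), and of 4 PEP markers 1 was higher and 1 lower (median -0.28). At the same level of 1 CPM, 4 of 4 immune (median 2.7) and 3 of 3 erythrocyte markers (median 2.9) were past it higher. Of 3 C-fiber low-threshold mechanoreceptor markers at that level, 1 was higher and 1 lower (median 0.99). The part of these markers in the Gabrg1 difference was not tested.

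Gabra2 at day 7 had medians of 114 CPM (49.0 to 490) in control and 106 CPM (14.6 to 265) in SNT cells, with a log2 ratio of means of -0.52. Gabra3 had medians of 0 (0 to 22.6) and 5.95 CPM (0 to 46.9), with 3 of 14 and 14 of 33 cells above 10 CPM and a log2 ratio of 1.06. The cells of the sides overlapped for both genes. Gabra5 was above 10 CPM in 8 of 14 control and 22 of 33 SNT cells, with means of 19.99 ± 18.9 and 18.1 ± 16.95 CPM. The log2 ratio of Gabra5 was 0.37 in female and -0.57 in male cells, both within the fold. Gabrb2 was above 10 CPM in 7 and 16 cells, with means of 28.95 ± 37.7 and 29.6 ± 40.04 CPM, and Gabrb1 in 2 and 5 cells, with means of 3.2 and 4.37 CPM. Gabrg3 had 0 counts in all 14 control cells and exceeded 10 CPM in 0 of 33 SNT cells, which allows a share of up to 10.6%.

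**Figure D2:**
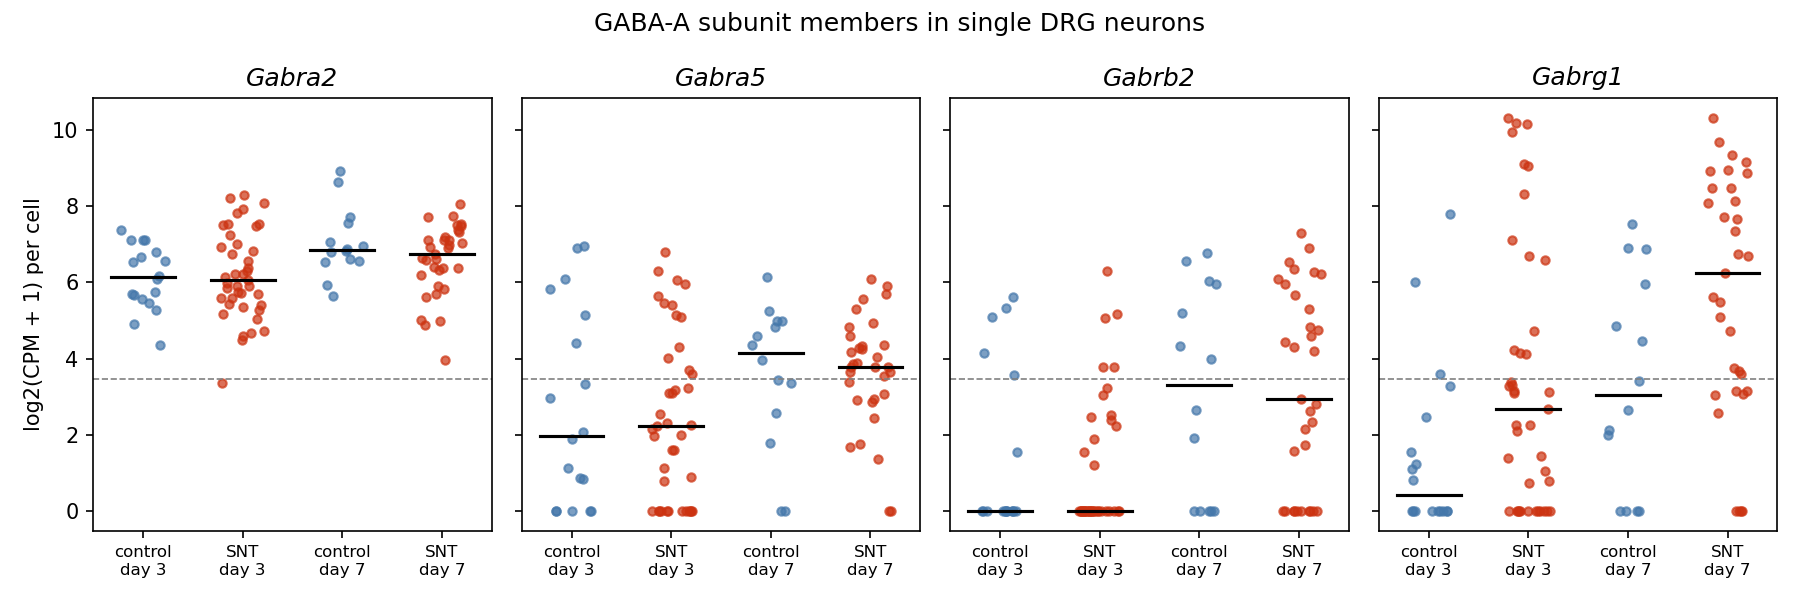
Level of Gabra2, Gabra5, Gabrb2 and Gabrg1 in single DRG neurons as log2(CPM + 1), with a point for each of the 18 control and 41 SNT cells of day 3 and the 14 control and 33 SNT cells of day 7, a black line at the median of the plotted values, and a dashed line at 10 CPM. Gabra2 lies above the dashed line in all but 1 of the 106 cells, and Gabrg1 has SNT cells of up to 1287 CPM at day 3 and 1281 CPM at day 7 against 221 and 183 CPM in the highest control cells.

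SNT-side cells were divided by Atf3, at the level of the highest control cell of the day, as a description with no test. At day 3 the limit was 75.7 CPM, with 30 SNT cells above and 11 not, and at day 7 it was 29 CPM, with 12 above and 21 not. SNT means and shares given before this division include the cells not above the limit. Among genes averaging 1 CPM or more, 48.8% of 13575 had a higher mean above the limit at day 3 and 39.7% of 13270 at day 7, beside 4 of 6 members on each day. Gabrg1 at day 7 was at 467 ± 348 CPM (7.3 to 1281) in the cells above the limit, 11 of 12 of them above 10 CPM. It was at 72.3 ± 114 CPM (0 to 473) in the other 21 cells, beside 39.3 CPM in control cells. At day 3 Gabrg1 was at 196 ± 398 CPM above the limit and at 54.1 ± 159 CPM in the others, while the medians of 3.5 and 7.67 CPM stood in the opposite order. Over SNT and control cells together, the Spearman correlation of Gabrg1 with Atf3 was 0.01 over the 59 cells of day 3 and 0.73 over the 47 cells of day 7. Within SNT cells alone it was -0.31 over 41 cells at day 3, against the order of the means, and 0.77 over 33 cells at day 7. The sexes were uneven in the division at day 7, with 8 female and 4 male cells above the limit and 8 female and 13 male cells not above. Gabrg1 had means of 628 ± 305 and 118 ± 153 CPM in these female cells and 147 ± 151 and 44.3 ± 74.5 CPM in the male cells, and the part of sex was not tested. Marker sums moved with the division at day 3, with medians of 239 CPM above the limit and 4066 CPM in the others for the PEP list, 1165 and 2246 CPM for the NP list, 243 and 199.7 CPM for the LM list, and 5581 and 3387 CPM for the glia list.

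Gabrb2 at day 7 was lower in the cells above the Atf3 limit, at 7.86 ± 9.12 CPM (3 of 12 cells above 10 CPM), than in the other SNT cells, at 42.1 ± 45.5 CPM (13 of 21). The Spearman correlation of Gabrb2 with Atf3 was 0.04 within the 33 SNT cells and 0.11 over the 47 cells of day 7. Gabrb1 was above 10 CPM in 5 of those 12 cells and in 0 of the other 21, with means of 10.8 ± 10.4 and 0.666 ± 1.70 CPM. Gabra5 was at 29.5 ± 22.8 and 11.6 ± 7.2 CPM, and Gabra2 at 147 ± 52.4 and 93.7 ± 56.4 CPM, while at day 3 Gabra2 stood the other way, at 96.8 and 104 CPM. The cells on either side of the limit overlapped for all of these genes. Marker sums moved with this division at day 7: the LM list had medians of 2377 CPM above the limit and 4159 CPM in the others, the PEP list 3.95 and 120 CPM, the NP list 621 and 89.1 CPM, and the glia list 726 and 1269 CPM. The NP sum followed Ret, with means of 635 CPM above the limit and 158 CPM in the others, while P2rx3 had 40.5 and 101 CPM and exceeded 10 CPM in 1 of the 12 cells above the limit. The part of these markers in the Gabrg1, Gabrb2 and Gabrb1 values was not tested.

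**Figure D3:**
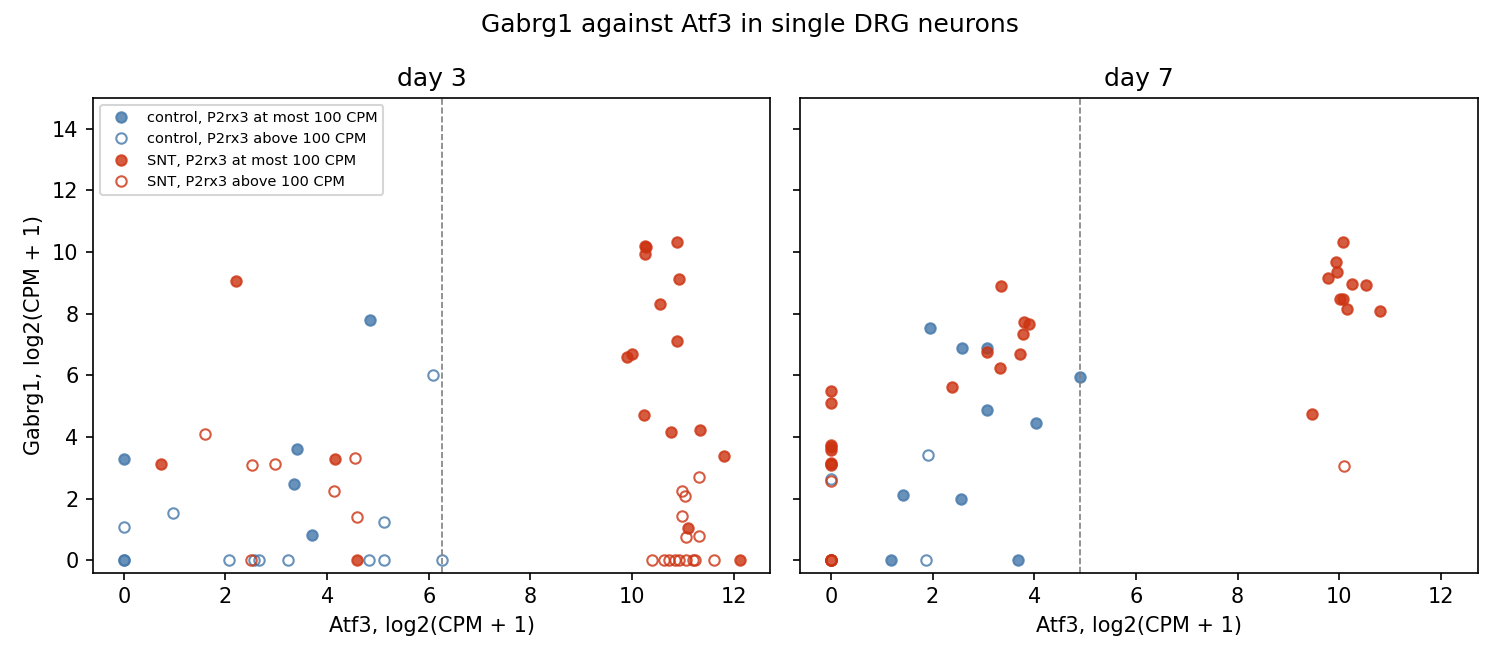
Gabrg1 against Atf3, both as log2(CPM + 1), in single DRG neurons of day 3 (left) and day 7 (right), with control cells in blue, SNT cells in red, filled points for cells with P2rx3 at most 100 CPM, open points for the others, and a dashed line at the highest control cell in Atf3. At day 7, 11 of the 12 SNT cells right of the line exceed 10 CPM of Gabrg1, and at day 3, 12 of 30 do.

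Since Gabra2 exceeded 10 CPM in 105 of 106 cells, it accompanied nearly any other member. Of the cells of day 3, 10 of 18 control and 21 of 41 SNT cells had only 1 member above that level. At day 3, 10 SNT cells had both Gabra5 and Gabrg1. They were 76.9% of the 13 cells with Gabra5, beside Gabrg1 in 34.1% of all 41 SNT cells. They were also 71.4% of the 14 cells with Gabrg1, beside Gabra5 in 31.7% of all. At day 7, 16 SNT cells had both, and the shares of 72.7% of the 22 cells with Gabra5 and 66.7% of the 24 with Gabrg1 equalled those of Gabrg1 and Gabra5 among all 33 SNT cells. In control cells 3 of 3 cells with Gabrg1 had Gabra5 at day 3, beside 33.3% of all control cells, and 4 of 6 at day 7, beside 57.1%. Of SNT cells with Gabrb2, 5 of 5 had Gabrg1 at day 3, beside 34.1% of all SNT cells. At day 7, 12 of 16 (75%) had it, beside 72.7%. Of control cells with Gabrb2, 2 of 5 had Gabrg1 at day 3 and 6 of 7 at day 7, beside 16.7% and 42.9% of all. Differences between pairs or sides were not tested. The median number of members above 10 CPM per cell was 1 in control and 1 in SNT cells at day 3, and 3 on both sides at day 7.

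For each member above 10 CPM in at least 20 cells, the genes with the highest Spearman correlation over the 59 day-3 cells were listed among 10562 genes, with the value over the 47 day-7 cells beside it. The cells share depth and neuron type, and no p is given. For Gabra2 they were Nptn (0.72 and 0.19), 1700020I14Rik (0.71 and 0.52) and Mdh1 (0.71 and 0.30). For Gabra3 they were Asic1 (0.60 and 0.58), Pcdh10 (0.58 and 0.41) and Pcbd1 (0.56 and -0.19). For Gabra5 they were Pcdh18 (0.77 and 0.43), S100b (0.77 and 0.06) and Folh1 (0.76 and 0.55). Scn1a, a voltage-gated sodium channel gene, led the list of Gabrb2 (0.73 and 0.73), before Ckmt1 (0.72 and 0.63) and Atp11a (0.71 and 0.53). For Gabrg1 they were Epn3 (0.71 and 0.43), Vsnl1 (0.68 and 0.23) and Endod1 (0.68 and 0.56). Gabrb1 (17 cells) and Gabrg3 (0 cells) were left out.

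Among 19 genes of receptor assembly, trafficking and anchoring, all were tested in pooled neurons, 2 were higher and 0 lower, and Gabarapl1 had the highest level per length. In pooled neurons Nlgn2, an adhesion protein gene of inhibitory synapses, was higher in 3 of 3 libraries, with a log2 change of 1.74 and an SE of 0.39 (adjusted p = 6.63e-04, edgeR's quasi-likelihood test). In day-3 cells Nlgn2 had means of 33.6 CPM in control and 32.3 CPM in SNT (log2 ratio -0.05), and 0 of the 19 genes were past the fold. At day 7 they were 48.3 and 70.9 CPM (log2 ratio 0.54), and 1 of the 19, Plcl1, was past it (1.95, higher). Zdhhc3, a palmitoyltransferase gene for gamma subunits, had a log2 change of 1.02 (SE 0.20, adjusted p = 1.01e-04, higher in 3 of 3) and fell under the fold limit in 7 of 14 alternatives. Of 6 genes of GABA-B receptors and partners, with Kctd8 the highest per length, 2 were lower: Gabbr2 (log2 change -1.10, adjusted p = 0.00402, 3 of 3) and Kctd12 (-2.55, adjusted p = 0.0462, 0 counts in 2 SNT libraries and in control library 3). Gabbr2 was not called without control library 1 or without control library 3, and Kctd12 not in 6 of 13 alternatives. Over these 13 the log2 change of Kctd12 ran from -6.17 to -1.56. In cells the log2 ratios at days 3 and 7 were 0.33 and 0.56 for Zdhhc3, -1.06 and -0.27 for Gabbr2, and 0.36 and 0.62 for Kctd12.

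Of 9 genes of GABA synthesis, transport and breakdown, 5 were tested. Abat, the GABA transaminase that degrades GABA and the highest of the list per length, was lower (log2 change -2.49, SE 0.32, adjusted p = 7.28e-08 by edgeR's quasi-likelihood test, 3 of 3 libraries). Gad1, a GABA-synthesizing enzyme, was higher at 17.9, 12.2 and 13.5 CPM against 6.88, 1.19 and 3.55 CPM (log2 change 2.07, SE 0.60, adjusted p = 0.00820), a call lost in 3 of 13 alternatives, with SNT library 1 or control library 2 left out and with thinning. In day-3 cells the means of Gad1 were 5.11 CPM in control and 4.29 CPM in SNT (log2 ratio -0.21), and at day 7 they were 0.284 and 0.181 CPM. Of 8 chloride gradient genes, with Stk39 the highest per length, 2 were lower: Slc12a2, the chloride importer of sensory neurons (log2 change -1.47, SE 0.27, adjusted p = 3.93e-05, 3 of 3), and Slc12a4 (-1.56, SE 0.46, adjusted p = 0.00981, 3 of 3), which was not called without control library 3 or with thinning and had log2 ratios of 0.21 in day-3 and -0.90 in day-7 cells. Of 5 glycine receptor genes only Glrb was tested and it was not called. Of the benzodiazepine site ligand gene Dbi and the translocator gene Tspo, Dbi was the higher per length and Tspo was called higher (log2 change 1.21, SE 0.38, adjusted p = 0.0145, 3 of 3), a call lost without SNT library 1, without control library 1 and in DESeq2. In cells the log2 ratios at days 3 and 7 were -0.96 and -0.02 for Abat, -0.68 and 0.00 for Slc12a2, and 0.95 and 0.97 for Tspo.

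The members lie in subunit clusters of the genome, by the RefSeq annotation of GRCm38.p6. On chromosome 5 Gabrg1 is next to Gabra2, followed by Cox7b2, Gabra4 and Gabrb1. On chromosome 7 Gabrg3 is next to Gabra5, and on chromosome 11 Gabrb2 is next to Gabra6. Gabra3 lies on chromosome X beside Gabrq. In the GENCODE annotation of exons, Gabra5 shares 148 exon bases with the antisense gene Gm9962, and Gabrb1 shares 46 with Gabra4 on the other strand. The libraries keep no strand, so reads in those bases cannot be told apart.

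Promoter sequences of all 7 members were matched by symbol in a RefSeq table of GRCm38.p6. Those of Gabrg1, its neighbour Gabra2 and Gabrb2 are shown, since Gabrg1 and Gabrb2 were called in opposite directions and Gabra2 was not called. Gabrg1 (chr5:70842568-70842867, minus strand) has 38.3% GC and 3 CpG, Gabra2 (chr5:71095800-71096099, minus strand) has 70% GC and 25 CpG, and Gabrb2 (chr11:42420190-42420489, plus strand) has 59% GC and 11 CpG. The medians over 32851 promoters of this length were 52.7% GC and 7 CpG. Capitals mark CpG. A search of both strands for the letters TGACGTCA (CRE) and TGANTCA (AP-1) found 0 matches in the 7 promoters, beside 1.79% and 7.81% of all promoters.
Gabrg1: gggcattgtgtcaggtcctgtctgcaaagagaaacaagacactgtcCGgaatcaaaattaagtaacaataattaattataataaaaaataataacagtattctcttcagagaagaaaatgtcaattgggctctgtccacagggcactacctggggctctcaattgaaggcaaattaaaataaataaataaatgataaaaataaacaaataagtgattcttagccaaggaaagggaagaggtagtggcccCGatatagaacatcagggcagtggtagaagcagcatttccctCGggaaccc
Gabra2: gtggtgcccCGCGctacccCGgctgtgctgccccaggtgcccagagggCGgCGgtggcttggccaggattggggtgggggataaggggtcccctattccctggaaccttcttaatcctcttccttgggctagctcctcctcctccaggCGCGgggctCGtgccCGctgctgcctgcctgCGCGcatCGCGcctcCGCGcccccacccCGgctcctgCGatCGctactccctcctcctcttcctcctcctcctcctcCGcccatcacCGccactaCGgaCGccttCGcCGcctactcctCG
Gabrb2: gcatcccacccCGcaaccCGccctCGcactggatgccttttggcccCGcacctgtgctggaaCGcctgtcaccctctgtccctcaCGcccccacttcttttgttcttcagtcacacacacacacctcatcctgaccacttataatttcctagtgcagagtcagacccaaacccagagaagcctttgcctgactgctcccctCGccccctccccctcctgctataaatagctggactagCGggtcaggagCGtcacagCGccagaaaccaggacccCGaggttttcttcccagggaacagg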

How the data were processed

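RNA of single and pooled DRG neurons was amplified by Smart-seq2. The authors processed reads with CASAVA 1.8.2, Bowtie2 and RSEM, and the deposited values are expected counts: the tables are named for TPM, but library totals range from 223967 to 2003817 and 77.2% of the values above 0 are whole (within 1e-6). The reads were aligned to mm9, and no coordinate of the tables was used. Expected counts were rounded to whole numbers for the count tests. CPM is a value divided by its column total, times 1000000. Symbols of the table without outliers were used for 27 genes whose symbols differ between the tables.

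Pooled libraries were tested with edgeR 4.0.16 in R 4.3.3 (TMM, quasi-likelihood fit, prior count 0.125, genes averaging 1 CPM or more, p-values adjusted by Benjamini-Hochberg over all genes tested), with SE taken as the log2 change over the root of F. The test was checked on simulated data. DESeq2 1.42.0 was an alternative. Cells were summarised in Python 3.11.15 with numpy 2.4.6, pandas 2.3.3 and scipy 1.17.1, and drawn with matplotlib 3.10.9. Their log2 ratios use a pseudocount of 1 CPM and have no test. Per-length levels divide CPM by GENCODE union exon lengths.

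The members and lists were chosen with earlier results of these data known. Named genes are the 7 members, Atf3, every gene of the lists called in pooled neurons, the highest gene per length of each list, and the 3 genes most correlated with each eligible member. Results for some other subunit genes are not reported here. Called marker genes were counted and summed by list. P2rx3, Nefh, Ntrk2, Ntrk3, Pvalb, Spp1, Ret, Calca, Snap25, Uchl1, Rbfox3 and Plcl1 beyond this rule, and the level of 100 CPM for Gabrg1, P2rx3, Nefh and Calca, were chosen after values were seen. Alternatives covered normalization, tool, filters, prior count, depth, single libraries, a replicate block, pseudocounts, summaries over cells, outlier cells and sex. Prior count 2 for counts of calls, cells low in P2rx3 and Calca, and the alternatives to the Atf3 division, also within each sex, were added after seeing the data.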

Additional observations from a re-analysis of the deposited data

Results flagged for a closer look

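Gabra3, an alpha subunit gene, had opposite signs on the 2 days: its log2 ratio of SNT over control cells was -1.49 at day 3 and 1.06 at day 7. The day-3 ratio was 0.00 with medians over cells, -0.58 with a pseudocount of 10 CPM, and 1.10, the opposite sign, in cells low in P2rx3 and Calca (11 SNT cells and 1 control cell, chosen after seeing the data). The day-7 ratio was 0.94 with summed counts, 0.54 with a pseudocount of 10 CPM and 2.80 with medians over cells. In cells low in P2rx3 and Calca (22 SNT and 6 control cells) the day-7 ratio was 3.07, so both days had the same sign there. The difference between the days was not tested, since each side of a day is 1 sample, and strain, sex and read length cannot be told apart from the day. Gabra3 exceeded 10 CPM in 3 of 18 control and 4 of 41 SNT cells at day 3, and in 3 of 14 control and 14 of 33 SNT cells at day 7.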

How the results depend on the processing

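Gabrb2 was called lower in pooled neurons under all 14 alternatives. Gabra5 and Gabrg1 kept their direction, and lost the call only as described for each. Of all genes, 1649 (mean of at least 10 CPM) to 2244 (library size alone) were called, 1771 with DESeq2, and 1879 to 2150 with a library left out, when 2 or 3 members were called. Library size alone shifted the median over all genes from 0.02 to -0.14 (log2) and the share of higher calls from 55.5% to 43.7%. With the library number as a replicate block 2009 genes and 3 members were called. Same-numbered libraries did not deviate together (r of 0.0685, -0.0145 and -0.0101), so the numbers were not read as a pairing.

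At day 3, 1 member (Gabrg1) was past the fold with medians over cells and 1 with a pseudocount of 10 CPM, in place of 2. Over all genes the shares were 16.5% and 4.76%, in place of 13.1%. There were 3 members with a pseudocount of 0.1 CPM and without the highest cells (both adding Gabrb1, higher) and with thinning (adding Gabrb2, lower). The shares over all genes were then 16.7%, 13.3% and 14.6%. With only cells low in P2rx3 and Calca, an alternative chosen after seeing the data, 6 of 7 members were past it, beside 36.4% of 13299 genes in the same cells, and Gabra3 reversed to a log2 ratio of 1.10. That comparison sets 11 SNT cells against 1 control cell and so has no measure of spread on the control side. Under it Gabrg1 had a mean of 465 CPM against 221 CPM. At day 7, 1 member (Gabrg1) was past the fold with summed counts and 1 with a pseudocount of 10 CPM, in place of 2. Over all genes the shares were 9.83% and 2.8%, in place of 9.62%. With a pseudocount of 0.1 CPM there were 3 members (adding Gabrg3, higher), beside 13.2% of all genes. Gabrg3 averaged less than 1 CPM, and 2 of the 6 members averaging 1 CPM or more were past the fold there. At a level of 1 CPM 5 members had a higher share of SNT cells at day 3, in place of 2 at 10 CPM. With any count above 0 in cells thinned to 200000 counts, 3 members had. The day-3 SNT cells had the higher median total, and no share over all genes was worked out beside these counts. By Atf3 at day 3, 3 of 6 members averaging 1 CPM or more were higher above the limit with medians, beside 45.6% of all genes at that level. In cells low in P2rx3 and Calca (10 cells against 1) 3 of 6 were, beside 49.2%. With outlier cells included 5 of 6 were, beside 45.9%. These stand in place of 4 of 6 and 48.8%. At day 7, 4 of 6 members averaging 1 CPM or more were higher above the limit in female cells and 5 of 7 in male cells. In both together 4 of 6 were. Of all genes averaging 1 CPM or more, 38.8% and 45.6% were higher there in female and male cells. The cause was not tested. Depth limits Gabra3, Gabrb1 and Gabrg3, which rest on few counts per library. It also limits Gabra5 in control libraries, and Gabrb2 in SNT libraries 1, 2 and 3, which held 5, 11 and 9 counts.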
